A study of Homo sapiens with 9 samples.

Results

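Cholesterol synthesis and SREBP genes were followed in Y79 cells, a line grown from a human retinoblastoma, after gold nanoparticles with and without a peptide. The set was a list of 30 genes chosen for their role: enzymes of the sterol pathway, the proteins that switch those enzymes on or off, 1 sterol carrier and 5 enzymes of fatty acid synthesis and desaturation. A member counted as measured where at least 1 probe set of the Affymetrix PrimeView array was annotated to its symbol and to no other. This held for 28 members, with 77 probe sets, among 18132 genes and 49293 probe sets in all. FDFT1 and CYP51A1 had no such probe set and were not analysed here.

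The study held 9 arrays in 3 groups of 3: untreated Y79 cells (Control), Y79 cells given bare gold nanoparticles (GNPs), and Y79 cells given gold nanoparticles conjugated with a peptide named for HDM2, human double minute 2 (GNPs-HDM2, here called the conjugate). HDM2 is the ubiquitin ligase that holds p53 in check. The sources used here do not give the peptide's sequence, the doses, the exposure times or whether each array came from its own culture. The p-values below therefore cover the spread between these arrays alone, and that spread may be technical. The labels of the treated arrays write the line as Y97 in their source names and as Y79 in their cell line field. Y79 is 1 line, so the arrays say nothing of spread between tumours.

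Cells make cholesterol from acetyl-CoA through mevalonate, isoprenoid diphosphates, squalene and lanosterol. When membrane sterol falls, SCAP escorts the SREBP proteins from the endoplasmic reticulum to the Golgi, where proteases free a transcription factor; INSIG proteins hold the complex back when sterol is ample. SREBP2, the product of SREBF2, is known chiefly for inducing the sterol pathway enzymes as a group, together with INSIG1 and SREBF2 itself. SREBP1, from SREBF1, is known chiefly for fatty acid synthesis genes. A change in SREBP2 activity would therefore be looked for as a shift of the enzymes in 1 direction, with INSIG1 moving the same way.

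The promoters of the members were searched for letters that such a response could read. RefSeq windows on build GRCh38.p14 were at hand for 26 of the 30 members, and the 250 bases before each start were searched on both strands, each motif on its own and with overlaps between motifs counted under both. The core of the sterol regulatory element, TCACNCCAC, stood in 0.883% of 35116 windows of all genes and in 1 member, SREBF2, where it began at position -133 relative to the start, on the gene's own strand. The box CCAAT, bound by NF-Y, a partner of SREBP, stood in 32% of all windows and in 22 of the 37 windows of the members, which belonged to 19 genes. The GC box GGGCGG, bound by Sp1, stood in 42.6% of all windows and in 32 of 37 windows of the members, which belonged to 25 genes. The stretches below, 100 bases each and written 5′ to 3′ on the strand of the gene, belong to 8 members picked by hand. Each stretch was placed around its marked letters. Capitals mark the sterol element core and CCAAT on either strand.
SREBF2, chr22:41832937-41833036, plus strand: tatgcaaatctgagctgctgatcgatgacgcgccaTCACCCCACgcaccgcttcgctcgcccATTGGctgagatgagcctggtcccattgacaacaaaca
INSIG1, chr7:155297660-155297759, plus strand: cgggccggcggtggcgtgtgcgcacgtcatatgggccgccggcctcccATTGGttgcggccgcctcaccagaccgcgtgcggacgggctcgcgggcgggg
HMGCS1, chr5:43313489-43313588, minus strand: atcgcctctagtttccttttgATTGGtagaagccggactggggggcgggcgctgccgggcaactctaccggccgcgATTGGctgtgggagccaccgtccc
MVD, chr16:88663162-88663261, minus strand: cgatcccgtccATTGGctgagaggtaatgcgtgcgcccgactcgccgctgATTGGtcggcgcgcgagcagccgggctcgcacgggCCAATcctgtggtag
LSS, chr21:46228873-46228972, minus strand: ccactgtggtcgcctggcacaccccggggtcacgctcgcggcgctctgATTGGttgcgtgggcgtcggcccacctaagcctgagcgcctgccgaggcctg
MSMO1, chr4:165327459-165327558, plus strand: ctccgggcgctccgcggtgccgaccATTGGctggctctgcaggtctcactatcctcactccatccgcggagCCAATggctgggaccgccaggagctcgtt
HSD17B7, chr1:162790602-162790701, plus strand: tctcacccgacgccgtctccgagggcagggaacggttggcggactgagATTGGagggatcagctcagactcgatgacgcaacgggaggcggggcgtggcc
SC5D, chr11:121292667-121292766, plus strand: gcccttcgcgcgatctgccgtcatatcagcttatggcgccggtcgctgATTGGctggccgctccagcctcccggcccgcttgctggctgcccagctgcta
In SREBF2 the sterol element was followed by a CCAAT box on the reverse strand. Among these picked stretches, CCAAT boxes were found beside genes that fell with the conjugate (HMGCS1, HSD17B7, SC5D) and beside genes that rose with it (MVD, LSS). The windows at the outermost start of IDI1, GGPS1, DHCR7, INSIG2, ACACA and SREBF1, which are not shown, held no CCAAT box. Other windows of IDI1, GGPS1, DHCR7 and ACACA did. A match of letters is a description, not a site of binding.

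The deposited numbers were log values, taken as base 2, from which a baseline had been subtracted probe set by probe set, so they carried differences and no absolute level. Where a gene had several probe sets of its own, their mean stood for it. Differences were tested with limma over all 18132 genes and all 9 arrays in 1 fit; a gene is said to have risen or fallen where its Benjamini-Hochberg adjusted p was under 0.05. The arrays of the conjugate stood apart from the other 6. Their hybridization controls averaged between 1.44 and 2.06 against between -0.58 and 0.15 on the other arrays, and their probes for 18S ribosomal RNA between -2.70 and -2.11 against between -0.93 and 0.81. The third conjugate array was milder than the other two: the SD of its values over all probe sets was 0.64, against 1.25 and 1.49. The change with the conjugate also followed brightness. From the step size of the stored numbers, probe sets were placed in classes of baseline level 2 to 4 (dim), 4 to 8 (middle) and 8 to 16 (bright), and their median change was 0.50, 0.12 and -1.18. Results are therefore given on both scales where it matters, as deposited and after subtracting the median of its class from each value on each array (level centring). Centring moved the median change of all genes from 0.25 to 0.06.

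With the conjugate, most sterol pathway enzymes fell against untreated cells, though not all in 1 direction. Of the 17 enzymes measured, 11 fell, 3 rose (MVK, MVD and LSS) and 3 did not pass the test (TM7SF2, MSMO1 and EBP), with a median change of -0.99. Of all 28 members 17 fell and 5 rose, with a median of -0.95, where 25.1% of all genes fell and 33.1% rose, with a median of 0.25. After level centring 10 members fell and 4 rose, with a median of -0.27, against 22.1% and 23.2% of all genes; of the enzymes 8 fell and 3 rose, with a median of -0.53. Quantile normalization of the deposited values called fewer genes: 8 members fell (FDPS, GGPS1, SQLE, NSDHL, SC5D, SCAP, INSIG2 and FADS1) and 0 rose, where 7.47% of all genes fell and 3.15% rose. There IDI1 stood at -0.85, HSD17B7 at -0.08 and SREBF1 at 0.41, none of which passed. In these bulk samples, fewer cells of a kind and less RNA per cell cannot be told apart.

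The size of the fall differed between the arrays of the conjugate. The median of the 17 enzymes was -1.05 on the first, -1.26 on the second and -0.15 on the third, where the untreated and bare particle arrays lay between -0.03 and 0.06. After level centring the medians of the 3 conjugate arrays were -0.30, -0.55 and 0.02. The third array lay at least 0.5 above both others for 14 of the 28 members, as it did for 22.4% of all genes. Of the 22 calls, 12 falls and 1 rise were kept in all 9 fits that left out 1 array each; the falls were IDI1, FDPS, GGPS1, SQLE, NSDHL, HSD17B7, SC5D, DHCR7, SCAP, INSIG2, ACACA and FADS1, and the rise was SREBF1. Of these, IDI1, GGPS1, SQLE, HSD17B7, SC5D, DHCR7, INSIG2, ACACA and SREBF1 were also called in all 9 such fits after level centring. How many of all genes kept their call in this way was not counted, so the members cannot be set against that share. Without Control replicate 3 or conjugate replicate 1 the count of calls was 14, and without conjugate replicate 3 it was 23. The share of all genes called in those fits is not given here either.

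**Figure D1:**
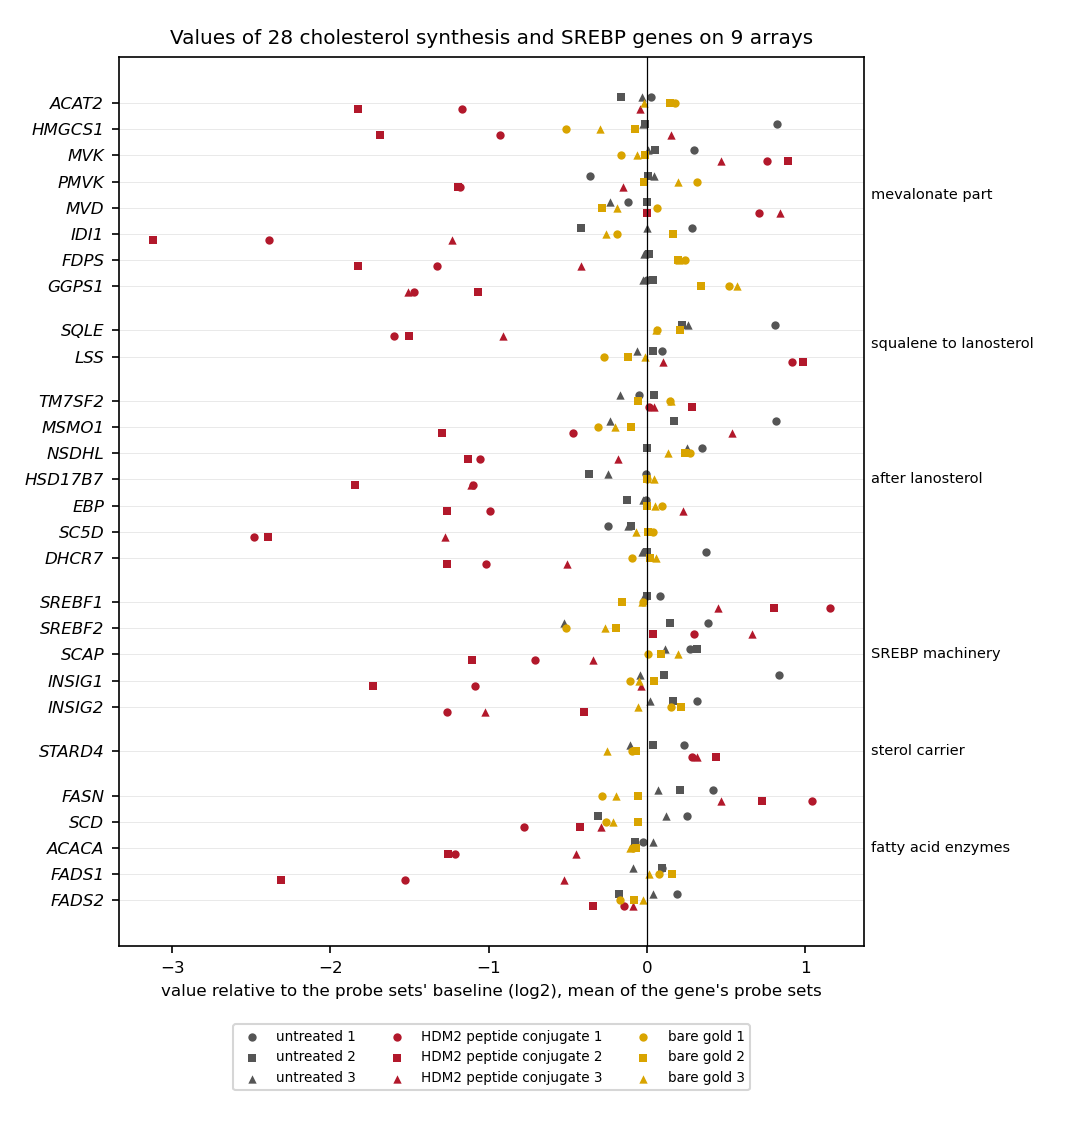
Value of each of the 28 measured members on each of the 9 arrays (log2, relative to the baseline of the probe sets, as deposited), with genes in rows by role, untreated arrays in grey, conjugate arrays in red and bare particle arrays in yellow; circles, squares and triangles are replicates 1, 2 and 3. The red circles and squares of most enzymes lie to the left, from -0.93 to -3.12 for HMGCS1 and IDI1, the red triangles lie nearer 0, and MVK, LSS, SREBF1 and FASN lie to the right.

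In the mevalonate part of the pathway 6 of 8 enzymes fell and 2 rose. GGPS1, which makes geranylgeranyl diphosphate for protein prenylation, read 0.00, 0.04 and -0.02 on the untreated arrays and -1.47, -1.07 and -1.51 on the conjugate arrays. All 3 conjugate arrays lay below all 3 controls, and in this mean the third was no milder than the first. Its probe sets differed in this. The bright one read -3.83, -3.67 and -2.59 with the conjugate, so there the third array was milder. The middle ones read -0.21, -0.30 and -1.69, and -0.38, 0.76 and -0.25. GGPS1 fell by 1.36 on the log2 scale (SE 0.16, adjusted p = 9.41e-04), and by 1.02 after level centring (adjusted p = 0.00418).
IDI1, the isomerase that interconverts the isoprenoid building blocks, read 0.28, -0.41 and 0.00 untreated and -2.39, -3.12 and -1.23 with the conjugate. The groups did not overlap, and this was the lowest mean change among the members. It was 4.60-fold lower (log2 -2.20, SE 0.40, adjusted p = 0.00346), and 4.79-fold lower after level centring. FDPS, which makes farnesyl diphosphate, the branch point of sterols and prenyl groups, read 0.00, 0.01 and -0.02 untreated and -1.32, -1.83 and -0.41 with the conjugate. The groups lay apart, yet both its probe sets were bright: the change of -1.19 (SE 0.29, adjusted p = 0.00951) came to -0.06 after level centring (adjusted p = 0.684).

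HMGCS1, the synthase that makes HMG-CoA and a classical SREBP2 target, read 0.82, -0.01 and -0.03 untreated and -0.93, -1.68 and 0.15 with the conjugate. The groups overlapped: the third conjugate array lay above 2 of the controls, and Control replicate 1 stood far above the other two. The change of -1.08 (SE 0.41, adjusted p = 0.0451) was just past the threshold, as it was after level centring (-1.14, adjusted p = 0.0498), and of the fits without 1 array only that without conjugate replicate 3 kept it. ACAT2, the cytosolic thiolase that opens the pathway, fell by 0.96 (SE 0.36, adjusted p = 0.0429), kept the call only without conjugate replicate 3 and stood at 0.17 after level centring (adjusted p = 0.301). PMVK, which phosphorylates phosphomevalonate, fell by 0.74 (SE 0.28, adjusted p = 0.0419), and by 0.80 after level centring; it kept the call in 2 of the 9 fits, those without Control replicate 1 or conjugate replicate 3.
The kinase and the decarboxylase of the same stretch went the other way. MVK, mevalonate kinase, read 0.30, 0.05 and 0.01 untreated and 0.76, 0.89 and 0.47 with the conjugate, so the groups lay apart. It rose by 0.59 (SE 0.17, adjusted p = 0.0148) and by 0.53 after level centring (adjusted p = 0.0145), but lost the call without Control replicate 2 or 3 (adjusted p at most 0.0553). MVD, which makes isopentenyl diphosphate, read -0.12, 0.00 and -0.23 untreated and 0.71, 0.00 and 0.84 with the conjugate. The second conjugate array lay at the level of the highest control. MVD rose by 0.63 (SE 0.22, adjusted p = 0.0355), did not pass after level centring (0.58, adjusted p = 0.0637) and kept the call in 2 of the 9 fits, those without conjugate replicate 2 or GNPs replicate 1.

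Of the enzymes between squalene and lanosterol, SQLE fell and LSS rose. SQLE, the squalene epoxidase, an oxygen-dependent control point of the pathway, read 0.81, 0.22 and 0.26 untreated and -1.60, -1.50 and -0.91 with the conjugate. The groups lay far apart, although Control replicate 1 again stood above the other controls. SQLE was 3.40-fold lower (log2 -1.77, SE 0.23, adjusted p = 0.00112) and 2.35-fold lower after level centring (adjusted p = 0.00123). LSS, which closes the ring of lanosterol, read 0.09, 0.04 and -0.06 untreated and 0.92, 0.99 and 0.10 with the conjugate. The third conjugate array was barely above the highest control. LSS rose by 0.64 (SE 0.23, adjusted p = 0.0361) and by 0.59 after level centring (adjusted p = 0.0455), and of the fits without 1 array it kept the call only in that without conjugate replicate 3.

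After lanosterol, 4 of 7 enzymes fell and none rose as deposited. SC5D, the desaturase of a late sterol intermediate, read -0.24, -0.10 and -0.12 untreated and -2.48, -2.40 and -1.27 with the conjugate. All conjugate arrays lay at least a full log2 unit below the controls. It was 3.73-fold lower (log2 -1.90, SE 0.28, adjusted p = 0.00181) and 3.16-fold lower after level centring. HSD17B7, which works in the removal of methyl groups from the sterol ring, read -0.01, -0.36 and -0.24 untreated and -1.10, -1.84 and -1.11 with the conjugate. The groups lay apart, with a fall of 1.14 (SE 0.21, adjusted p = 0.00370) and of 1.20 after level centring. HSD17B7 was measured by 1 probe set, whose suffix does not mark a match to 1 gene. It was therefore absent where only probe sets with such a mark were used. DHCR7, which performs the last reduction to cholesterol, read 0.37, 0.00 and -0.03 untreated and -1.02, -1.26 and -0.50 with the conjugate. It fell by 1.04 (SE 0.21, adjusted p = 0.00483) and by 1.10 after level centring.

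The bright members of this stretch changed with the scaling. NSDHL, a dehydrogenase of the same demethylation steps measured by 1 bright probe set, fell by 0.99 (SE 0.24, adjusted p = 0.00936) but stood at 0.14 after level centring (adjusted p = 0.522). EBP, a sterol isomerase measured by bright probe sets only, read -0.01, -0.12 and -0.02 untreated and -0.99, -1.26 and 0.23 with the conjugate, so the third array was on the other side of the controls. Its change of -0.62 did not pass (SE 0.32, adjusted p = 0.112), and after level centring EBP was higher by 0.50 (adjusted p = 0.00904). MSMO1, the methylsterol monooxygenase, read 0.82, 0.17 and -0.23 untreated and -0.46, -1.30 and 0.54 with the conjugate, and its change of -0.66 did not pass (SE 0.41, adjusted p = 0.181). The 3 conjugate arrays of MSMO1 spanned a wider range than the controls and overlapped them. TM7SF2, a sterol reductase, differed by 0.17 (SE 0.15, 95% interval -0.17 to 0.51, adjusted p = 0.328).

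Among the regulators, INSIG2 fell and SREBF1 rose under both scalings, and SREBF2 did not pass the test. SREBF2 read 0.39, 0.15 and -0.52 untreated and 0.30, 0.04 and 0.66 with the conjugate. The groups overlapped, with the third conjugate array above every control. Its change of 0.33 had a 95% interval of -0.23 to 0.89 (SE 0.25, adjusted p = 0.268). Control replicate 3 lay at least 0.5 below the other controls for this gene alone among the members. SREBF1 read 0.08, 0.00 and -0.02 untreated and 1.16, 0.81 and 0.45 with the conjugate. The groups did not overlap, and SREBF1 was 1.72-fold higher (log2 0.78, SE 0.19, adjusted p = 0.00836), or 1.65-fold after level centring (adjusted p = 0.00911).

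INSIG1, the retention protein that SREBP2 itself induces, read 0.83, 0.11 and -0.04 untreated and -1.09, -1.73 and -0.04 with the conjugate. The third conjugate array lay within the controls. INSIG1 fell by 1.25 (SE 0.38, adjusted p = 0.0204), lost the call without Control replicate 1 or conjugate replicate 1 or 2 (adjusted p at most 0.0710), and did not pass after level centring (-0.52, SE 0.25, adjusted p = 0.112). INSIG2, the related retention protein, read 0.31, 0.17 and 0.02 untreated and -1.26, -0.40 and -1.02 with the conjugate. The groups lay apart, here with the second conjugate array as the mildest. INSIG2 fell by 1.06 (SE 0.22, adjusted p = 0.00531) and by 1.12 after level centring (adjusted p = 0.00269). SCAP, the escort protein, read 0.28, 0.32 and 0.11 untreated and -0.71, -1.11 and -0.34 with the conjugate. Its fall of 0.95 (SE 0.20, adjusted p = 0.00526) was not kept after level centring, where SCAP stood at 0.17 (adjusted p = 0.479); both its probe sets were bright.

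STARD4, a carrier that moves cholesterol between membranes, read 0.24, 0.04 and -0.10 untreated and 0.29, 0.43 and 0.32 with the conjugate. The groups lay apart by a narrow margin, and the change of 0.29 did not pass (SE 0.15, adjusted p = 0.120). After level centring it was -0.11. This mean joined probe sets that disagreed. The middle one rose by 1.14, and by 1.09 after level centring. The 4 dim ones changed by -0.23 to 0.49 and none passed. After level centring dim ones at -0.71 and -0.57 fell.
Of the 5 fatty acid enzymes 3 fell and 1 rose. ACACA, the acetyl-CoA carboxylase that commits carbon to fatty acids, read -0.03, -0.07 and 0.04 untreated and -1.21, -1.26 and -0.45 with the conjugate. It fell by 0.95 (SE 0.21, adjusted p = 0.00649) and by 0.62 after level centring (adjusted p = 0.00702). FADS1, a desaturase of polyunsaturated fatty acids, read 0.09, 0.10 and -0.09 untreated and -1.53, -2.31 and -0.52 with the conjugate. The groups lay apart, and the fall of 1.49 (SE 0.36, adjusted p = 0.00861) came to -0.36 after level centring, which just missed the threshold (adjusted p = 0.0514). SCD, the stearoyl-CoA desaturase, fell by 0.52 (SE 0.20, adjusted p = 0.0439), kept the call in 2 of the 9 fits, those without Control replicate 2 or conjugate replicate 3, and did not pass after level centring (-0.28). FASN, the fatty acid synthase, read 0.42, 0.21 and 0.07 untreated and 1.05, 0.73 and 0.47 with the conjugate, with a gap of a few hundredths between the groups. It rose by 0.52 (SE 0.18, adjusted p = 0.0359), did not pass after level centring (0.46, adjusted p = 0.0515), stood at -0.10 after quantile normalization, and kept the call in 2 of the 9 fits, those without Control replicate 1 or conjugate replicate 3. FADS2, the partner desaturase, differed by -0.21 (SE 0.16, adjusted p = 0.255).

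**Figure D2:**
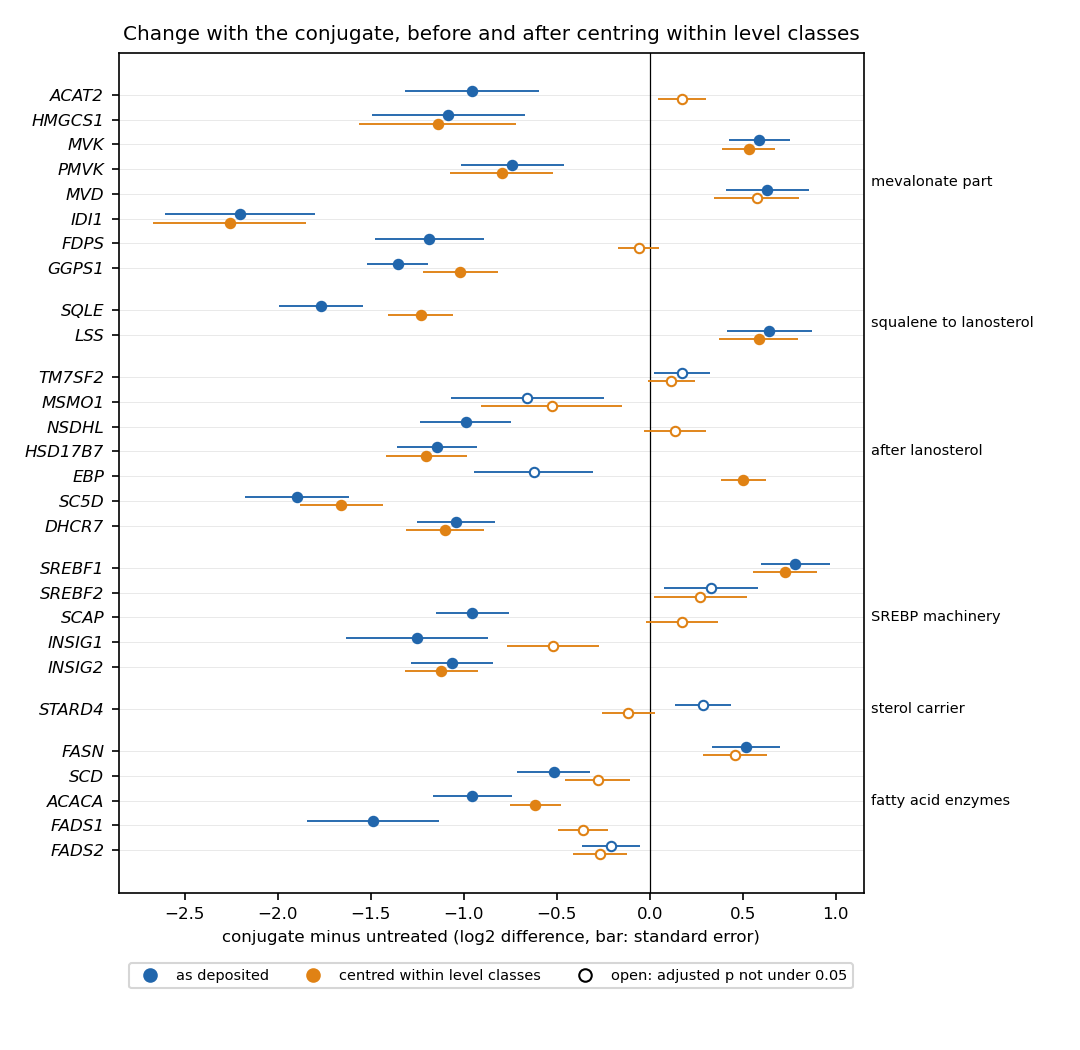
Difference between conjugate and untreated arrays for each of the 28 members (log2, with the standard error of the limma fit as bars), as deposited in blue and after level centring in orange; filled points had an adjusted p under 0.05. IDI1, SC5D, SQLE and GGPS1 stay well below 0 on both scales, MVK, LSS and SREBF1 stay above it, and ACAT2, FDPS, NSDHL, EBP and SCAP move to or across 0 with centring.

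The members' own probe sets followed the brightness shift in part. Of their 22 bright probe sets 16 fell and none rose, with a median of -1.29, where 60.8% of all bright probe sets fell and 7.15% rose, with a median of -1.18. Of their 50 middle probe sets 16 fell and 7 rose, with a median of -0.23, where 25.3% of all middle probe sets fell and 25.7% rose, with a median of 0.12. Of their 5 dim probe sets 0 fell and 1 rose, where 0.567% of all dim probe sets fell and 33.8% rose. The part of the brightness shift in the falls of single genes was not tested beyond the centring.

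Probe sets of 1 gene often disagreed in size. Of the 23 members with several probe sets, 12 spanned more than 1 log2 unit of change, and the median span was 1.13. The 4 probe sets of SQLE changed by -4.08, -1.32, -1.21 and -0.45, so the direction was shared and the size was not. For GGPS1 the 3 changes were -3.38, -0.70 and 0.01, and the fall of the gene rested on its bright probe set. For ACACA they were -2.35, -0.28 and -0.23, again with 1 bright probe set setting the mean. For SREBF1 they were 1.34, 0.52 and 0.49, and only the first passed on its own, as deposited and after level centring. The 4 probe sets of SC5D all fell, between -2.59 and -0.96, and both of IDI1 did, at -2.29 and -2.11. MSMO1 and FADS2 held probe sets that fell beside others that rose, from -2.31 to 1.92 for MSMO1 and from -1.53 to 0.73 for FADS2. With only the probe sets whose suffix marks a match to 1 gene, MSMO1 was higher by 0.69 (adjusted p = 0.0309).

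**Figure D3:**
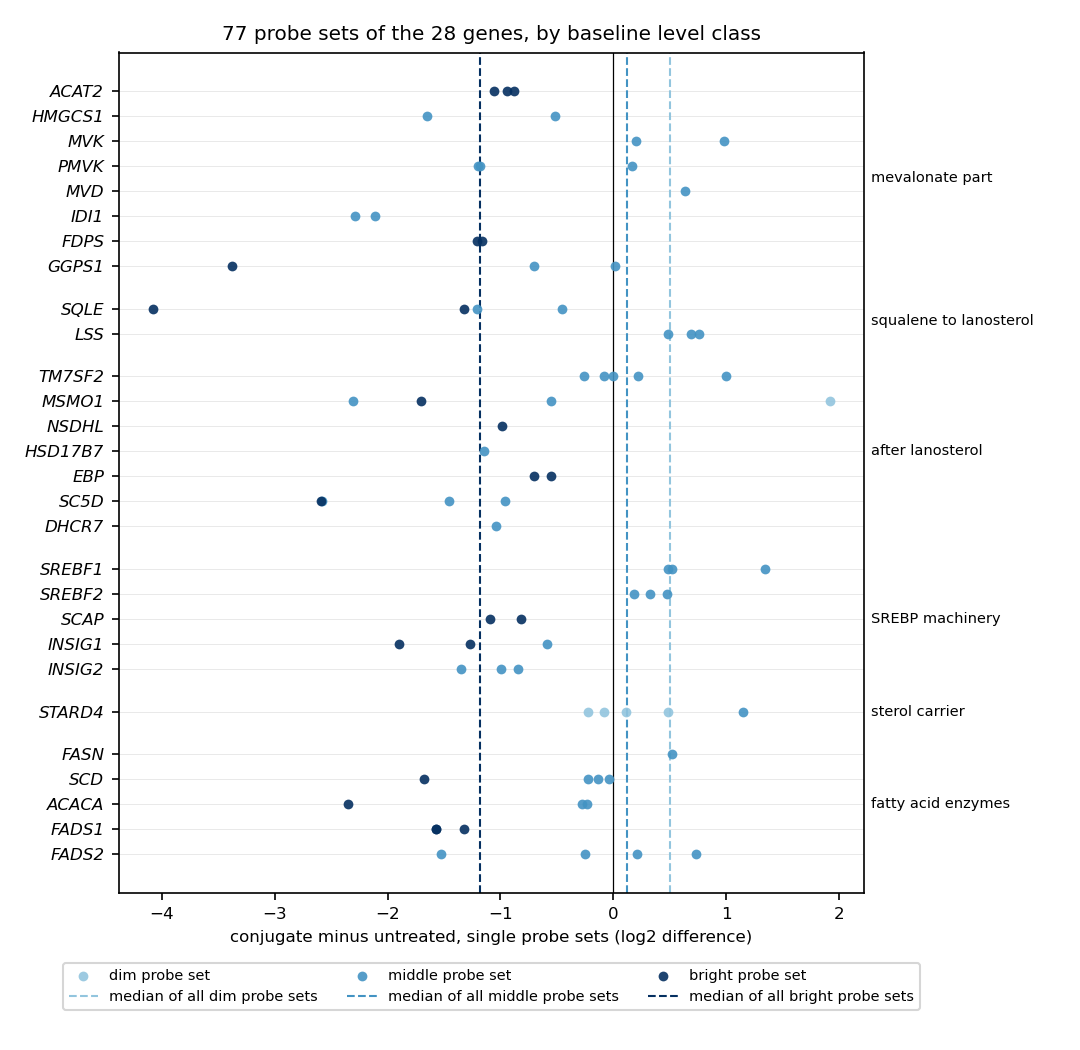
Difference between conjugate and untreated arrays for each of the 77 probe sets of the members (log2), coloured by class of baseline level; dashed lines mark the median change of all dim, middle and bright probe sets. Single bright probe sets of SQLE, GGPS1, ACACA and SCD lie far to the left of the other probe sets of the same gene.

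The peptide-bearing particle was also set against the bare one, which asks what the peptide adds to gold. This comparison uses the same conjugate arrays as the first, so the pair are not independent. Against bare particles 14 members fell and 7 rose, where 29.1% of all genes fell and 43.2% rose. After level centring 10 fell and 6 rose, where 27% of all genes fell and 30.4% rose. The median change of the 17 enzymes was -1.01, against 0.30 for all genes, and -0.21 after level centring, against 0.08.
GGPS1 read 0.52, 0.34 and 0.57 with bare particles, above all conjugate arrays by more than a log2 unit, and was 3.55-fold lower with the conjugate (log2 -1.83, SE 0.16, adjusted p = 2.05e-04). SC5D read 0.04, 0.01 and -0.07 with bare particles and was 4.13-fold lower with the conjugate (adjusted p = 7.06e-04). SQLE read 0.06, 0.21 and 0.06 with bare particles and was 2.73-fold lower with the conjugate (adjusted p = 0.00102). All 3 genes read lower on every conjugate array than on any bare particle array, and fell under both scalings.
HMGCS1 read -0.51, -0.07 and -0.30 with bare particles, and here the conjugate differed by -0.53 (SE 0.41, adjusted p = 0.264), which did not pass. INSIG1 read -0.11, 0.04 and -0.05 with bare particles and did not pass either (-0.91, SE 0.38, adjusted p = 0.0523; -0.14 after level centring). Both genes had passed against untreated cells, where Control replicate 1 was high; whether the comparisons differ was not tested. FASN read -0.28, -0.05 and -0.19 with bare particles and rose by 0.93 with the conjugate (SE 0.18, adjusted p = 0.00239), kept in all 9 fits that left out 1 array. MVK rose by 0.79 (adjusted p = 0.00300), LSS by 0.80 (adjusted p = 0.0114), MVD by 0.65 (adjusted p = 0.0247) and SREBF1 by 0.88 (adjusted p = 0.00316). SREBF2 read -0.51, -0.20 and -0.27 with bare particles, below every conjugate array, and rose by 0.66 (SE 0.25, adjusted p = 0.0380), but it kept the call in 3 of the 9 fits and did not pass after level centring (0.60, adjusted p = 0.0637). STARD4 rose by 0.48 (adjusted p = 0.0166), but stood at 0.01 after level centring.

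With bare gold particles no member passed the test against untreated cells. Of all genes 0% fell and 0.0221% rose as deposited; after level centring 0% fell and 0.0331% rose, and again no member was called. With limma 1 of 28 members had an unadjusted p under 0.05, against 5.36% of all genes, and 2 of 28 after level centring, against 7.85%. Quantile normalization called 2 members, GGPS1 higher and FASN lower, where 8.37% of all genes were lower and 6.97% higher. Array weights called 6, with GGPS1, FDPS and HSD17B7 higher and FASN, SREBF2 and MSMO1 lower, where 22.5% of all genes were lower and 18.7% higher. The member with the lowest p was GGPS1, higher by 0.47 (95% interval 0.11 to 0.84, adjusted p = 0.864), with all bare particle arrays above all controls. The median change of the 17 enzymes was 0.02, against -0.06 for all genes.
The intervals were wide for several members, and not only for those that Control replicate 1 moved. The fit takes 1 spread for all groups, so the spread of the conjugate arrays enters these intervals too. FDPS had an SD of 0.02 on the untreated arrays, 0.02 on the bare particle arrays and 0.72 on the conjugate arrays. Its interval for bare particles against untreated cells ran from -0.44 to 0.87. HMGCS1 differed by -0.56 (95% interval -1.48 to 0.36), MSMO1 by -0.46 (-1.37 to 0.46), INSIG1 by -0.34 (-1.19 to 0.51) and SQLE by -0.32 (-0.82 to 0.18). These 4 were the members for which Control replicate 1 lay at least 0.5 above both other controls, as it did for 1.58% of all genes. Without that array their differences were -0.28 for HMGCS1, -0.17 for MSMO1, -0.07 for INSIG1 and -0.13 for SQLE. The members were chosen for their role, so a role shared by these 4 was given in advance. What set this array apart was not tested. FASN differed by -0.41 (95% interval -0.82 to 0.00), with all bare particle arrays below the controls, and SREBF2 by -0.33 (-0.89 to 0.23). These data do not show that bare gold left the members unchanged, since a difference of 0.5 in 1 direction or the other lies inside many of the intervals.

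**Figure D4:**
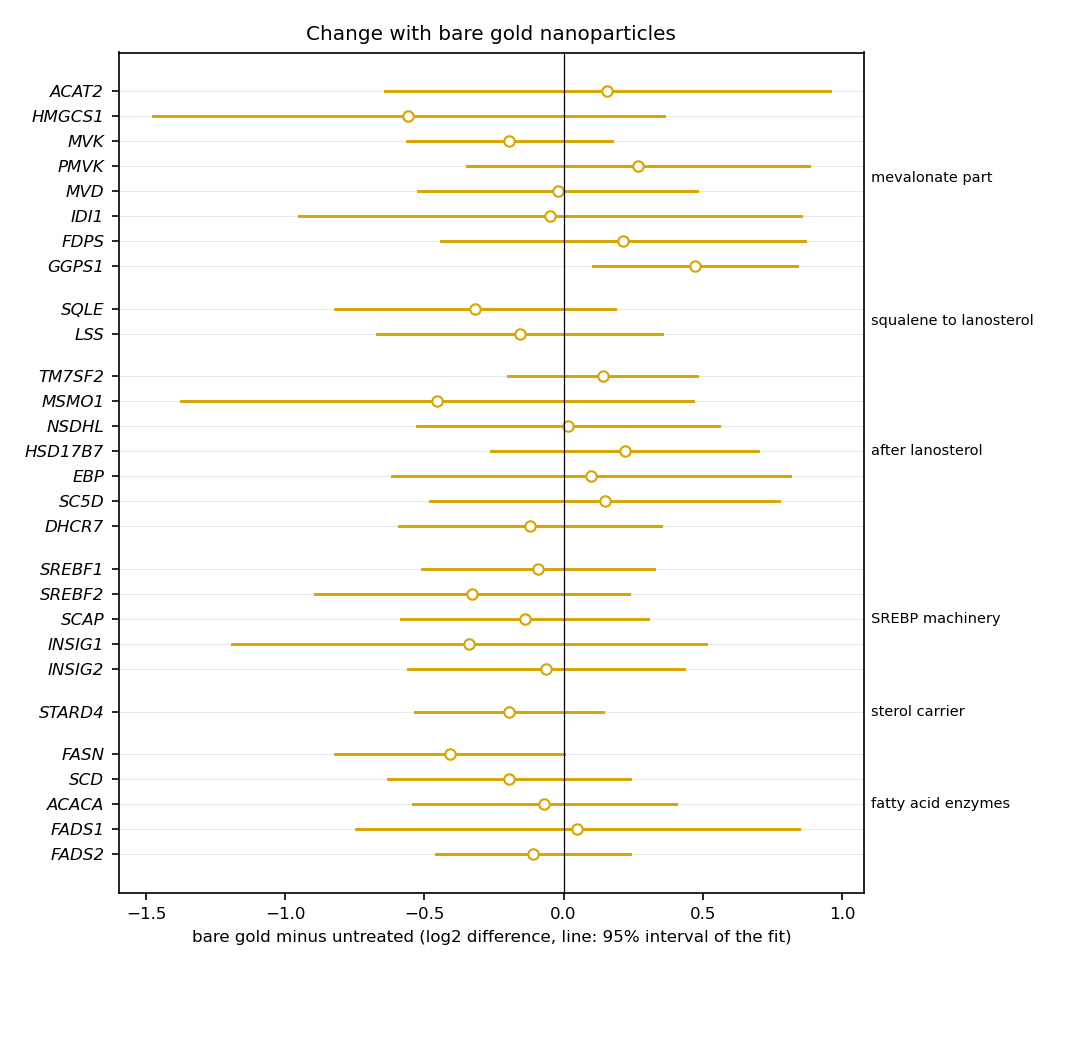
Difference between bare particle and untreated arrays for each of the 28 members (log2, with the 95% interval of the limma fit as lines). Open points mark that no member had an adjusted p under 0.05; only the interval of GGPS1, from 0.11 to 0.84, lies clear of 0.

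Other genes of the pathway were read from lists drawn up by function; their counts stand beside 25.1% of all genes that fell and 33.1% that rose as deposited, and 22.1% and 23.2% after level centring. Of 8 measured genes for SREBP cleavage and sterol-induced degradation 6 fell with the conjugate against untreated cells and none rose, and 4 fell after level centring. ERLIN1, a scaffold that helps the sterol-dependent degradation complex, fell by 1.70 (SE 0.20, adjusted p = 9.01e-04), and RNF139, a ubiquitin ligase of the endoplasmic reticulum, fell by 1.49 (SE 0.25, adjusted p = 0.00256). Both fell after level centring too, by 1.11 and 1.76. Of the 7 genes measured in the isoprenoid branches 5 fell and none rose under both scalings. PDSS1, which builds the tail of coenzyme Q, fell by 1.60 (SE 0.26, adjusted p = 0.00239), and NUS1, a subunit of the dolichol-forming enzyme, fell by 1.98 (SE 0.41, adjusted p = 0.00526).

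Of 9 other lipid genes linked to SREBP1 5 fell and 1 rose, and after level centring 4 fell and 1 rose. MID1IP1, which promotes the polymerization of acetyl-CoA carboxylase, fell by 1.69 (adjusted p = 0.00164), ACLY, which makes cytosolic acetyl-CoA from citrate, fell by 2.28 (adjusted p = 0.00290), and ACACB, the second carboxylase, rose by 0.92 (adjusted p = 0.00867). Of 5 other genes listed under sterol synthesis 2 fell, ACAT1 by 0.99 and LBR by 0.87, and 2 rose, IDI2 by 0.83 and FAXDC2 by 0.72. After centring 1 fell, ACAT1 by 0.67, and 3 rose. ACAT1 is the mitochondrial counterpart of ACAT2 rather than an enzyme of the cytosolic pathway. Of 13 genes for sterol sensing by LXR, export and storage 4 fell and 3 rose, and after centring 4 fell and 4 rose. ABCG1, a sterol exporter induced by LXR, fell by 1.68 (SE 0.21, adjusted p = 0.00107) and SOAT1, which esterifies cholesterol for storage, by 1.29 (adjusted p = 0.0134), while STARD3 rose by 0.68 and CYP46A1 by 0.90. ABCA1, the other main LXR-induced exporter, did not pass (0.33, SE 0.18, adjusted p = 0.124). No gene of these lists was called with bare particles.

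Markers of the labelled cell type and of others moved with the conjugate as well. All 7 photoreceptor lineage genes checked were measured, 3 of them bright, and 3 fell under both scalings: CRX, OTX2 and THRB. Of all genes 25.1% fell as deposited and 22.1% after level centring. RCVRN, NRL, ARR3 and GNGT2 did not pass under either scaling. None of the measured markers of pigment epithelium, glia, fibroblasts, blood and liver was bright. Of them 4 of 5 pigment epithelium, 2 of 4 glial, 3 of 6 fibroblast, 4 of 4 blood and 2 of 4 liver markers rose as deposited, where 33.1% of all genes did, and 1, 0, 2, 1 and 2 after level centring, where 23.2% of all genes did. Their part in the results for the sterol genes was not tested.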

How the data were processed

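Total RNA of Y79 cells was labelled with biotin and hybridized to 9 PrimeView arrays, per the labels' protocols. The authors deposited 1 value per probe set and array, on a log scale taken as log2. Which tool, scaling and baseline made them is not given in the sources used here. An exact 0 stood on at least 1 array in 59.7% of probe sets, as a median baseline would leave. Base 2 was taken without proof of it, and folds rest on it.

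The 49395 probe sets included 102 array controls, which did not enter the tests. By the platform annotation 44988 of the others had 1 symbol, 1832 several and 2473 none, and only the first were used for genes. Differences were fitted by lmFit and eBayes of limma 3.58.1 (2-sided tests), under R 4.3.3 with the data.table package at version 1.17.8, with p-values adjusted by Benjamini-Hochberg over 18132 genes, or over all probe sets for single probe sets, at 0.05. The fit takes 1 spread for all groups. Level classes came from the finest step of the stored numbers on the untreated and bare particle arrays; 531 probe sets had none. The number of arrays limits the precision.

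The members and lists were chosen with earlier results of these data known. All members were named, with values per array for up to 3 per role and direction by adjusted p and always for INSIG1, SREBF2, SQLE and HMGCS1, with others added after their values were seen; other lists had up to 2 genes named per direction, and ABCA1, CRX, OTX2 and THRB were named after their values were seen. The scripts were tested on data simulated with each group's own spread. For the conjugate against untreated cells, 50 of 100 genes given a change of 1 log2 unit were called, and 82 of 100 given 2. There 138 genes with no added change were called too, so the threshold did not keep the share of false calls under 0.05 in this simulation. False calls numbered 128 for the conjugate against bare particles and 7 for bare particles against untreated cells. The simulation drew genes independently and changed 100 genes by each size. In the data 25.1% of all genes fell and 33.1% rose with the conjugate against untreated cells. The numbers called in the simulation therefore need not hold for the data. Alternatives were other scalings, probe set choices and fits, and leaving out each array. The main fits did not pair arrays by replicate number. The correlations between same-numbered arrays, given below, do not settle whether the arrays were paired.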

Additional observations from a re-analysis of the deposited data

How the results depend on the processing

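Several settings moved these results. The share of all genes called is not given here for fits of only the 2 groups compared or without 1 array. Nor is it given with the replicate number as a block. Whether the counts of members in those fits changed more than calls among all genes was not tested. Against untreated cells the conjugate called 22 members as deposited, 8 after quantile normalization, all of them falls, 14 after level class centring, 12 with centring and the replicate block together (an alternative chosen after seeing the data) and 13 in a fit of only the 2 groups compared; leaving out 1 array each gave 14 to 23. The median of the 17 enzymes went from -0.99 to -0.25 with quantile normalization and to -0.53 with level class centring, with or without the block. Against bare particles that median went from -1.01 to -0.65 and to -0.21. Bare particles called 0 members as deposited, 2 after quantile normalization, where 8.37% of all genes were lower and 6.97% higher, and 6 with array weights, where 22.5% were lower and 18.7% higher. Among members called under at least 1 of the settings compared, direction turned against untreated cells for ACAT2 (0.17), NSDHL (0.14), EBP (0.50) and SCAP (0.17) with level class centring, with or without the block, for MSMO1 (0.69) with only probe sets marked as matching 1 gene, and for FASN (-0.10) with quantile normalization. Among such members it turned against bare particles for ACAT2 (0.079), NSDHL (0.19), EBP (0.47) and SCAP (0.38) with centring, and for MSMO1 (1.05) and FADS2 (0.40) with those probe sets. Level class centring removes a shift with brightness by construction. Quantile normalization gives every array the same distribution of values and does not use the level classes, so it need not remove that shift. Whether the shift is technical was not tested.

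Same-numbered arrays of different groups shared deviations with correlations from -0.03 to 0.23, others from -0.22 to 0.18, and an array agreed best with its own number in 8 of 18 cases. With the replicate number as a block 21 members were called with the conjugate against untreated cells, 20 against bare particles and 0 with bare particles. The share of all genes called with this block is not given here, so these counts cannot be set against it. The deposited values give no signal over background, so what is too dim to measure is not known here.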
